A study of Mus musculus with 16 samples.

Results

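The genes described here encode 35 plasma proteins of the complement and coagulation cascades, chosen by gene name from the annotation of the arrays. All 35 had a probe on the array, 48 probes in all, and all 35 passed the filter on dim probes, within 23312 genes tested. Among the 35, 34 passed the filter in all 4 groups and C8a in 3. RNA was measured on 16 one-colour Agilent arrays in cells of c129/S3 mouse livers, sorted by 2 surface antigens, the one bound by the monoclonal antibody MIC1-1C3 (M) and CD133 (133, the product of Prom1). The groups were M+133+ cells (n = 4) and M-133- cells (n = 4) from mice that had 0.1% DDC in the diet for 2 weeks, and M+133+ cells (n = 4) and M-133- cells (n = 2) from untreated mice. DDC is a porphyrin-inducing compound that injures bile ducts and elicits a ductular reaction. All groups shared strain, base diet, tissue digestion, lysis of erythrocytes and sorting straight into lysis reagent. The design text calls the samples biological replicates, and a repeat array was averaged into its sample for untreated M+133+ sample 1 and for untreated M-133- sample 2. The sort gives cells positive for both antigens and cells negative for both, and which other cells the negative gate held is not given in the sources used here.

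Complement is a cascade of plasma proteases that is started by antibody, by lectins that bind microbial sugars, or by spontaneous turnover of C3, and that ends in a pore, the membrane attack complex. Coagulation is a second cascade of plasma proteases, many of which need a vitamin K-dependent modification, and it ends in fibrin, which plasmin later dissolves. Hepatocytes secrete most of these proteins into the blood. C3 and factor B are acute phase proteins that epithelial cells and macrophages also make in inflamed tissue.

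The 75th percentile signal of the arrays ran between 602.8 and 2732.2 intensity units, and the scanner software called 60.3% to 77.3% of an array's probes well above background. Every level below is a log2 processed signal relative to the 75th percentile of its array, so that 0 is a signal at that percentile and 1 unit is a factor of 2. Marker lists went with the sort labels. The mean of 11 bile duct markers lay between 2.77 and 4.59 in M+133+ samples and between -4.21 and -1.10 in M-133- samples. The mean of 21 hepatocyte markers lay between -2.28 and 0.84 in M+133+ samples and between 3.76 and 4.85 in M-133- samples. In each M+133+ sample 17 to 21 of the 21 hepatocyte markers were still well above background. Samples stood apart in both sorts. M-133- untreated sample 1 had a mean of -0.01 over 10 Kupffer cell and macrophage markers, whereas M-133- untreated sample 2 had -5.20. M+133+ DDC sample 2 had a hepatocyte mean of 0.84, whereas M+133+ DDC samples 1, 3 and 4 had -1.14, -2.28 and -1.38. In that sample 23 of the 35 members were at their highest among the M+133+ DDC samples (65.7%), against 14 of 21 hepatocyte markers (66.7%) and 5522 of 23312 genes (23.7%). The mean of the same Kupffer cell and macrophage markers was -1.15 there, against -6.05 to -4.07 in the other M+133+ DDC samples. In sorted bulk RNA, fewer cells of a type and less RNA per cell cannot be told apart, and the part of admixed cells in the differences below was not tested.

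The first comparison asked how M+133+ cells differ from M-133- cells. In DDC livers 30 of the 35 members were lower in M+133+ cells and 0 were higher (limma, called at an adjusted p below 0.05 after Benjamini-Hochberg correction across 23312 genes). Over all genes 6.48% were lower and 6.44% were higher by the same rule. In untreated livers 23 of the 35 were lower and 0 higher, beside 5.16% lower and 3.63% higher over all genes. The median log2 difference of the members, M+133+ minus M-133-, was -5.23 in DDC livers and -4.67 in untreated livers, whereas the median of all genes was 0.31 and -0.07. The 21 hepatocyte markers had medians of -5.87 and -5.06, with 17 and 18 of them lower. Every M+133+ sample lay below every M-133- sample for 29 members in DDC livers and for 32 in untreated livers, where such separation was found for 7.05% and 17.9% of all genes. The opposite separation, M+133+ above M-133-, was found for 0 members in DDC livers and for C2 and Proc in untreated livers, where it was found for 7.67% and 15.8% of all genes.

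**Figure D1:**
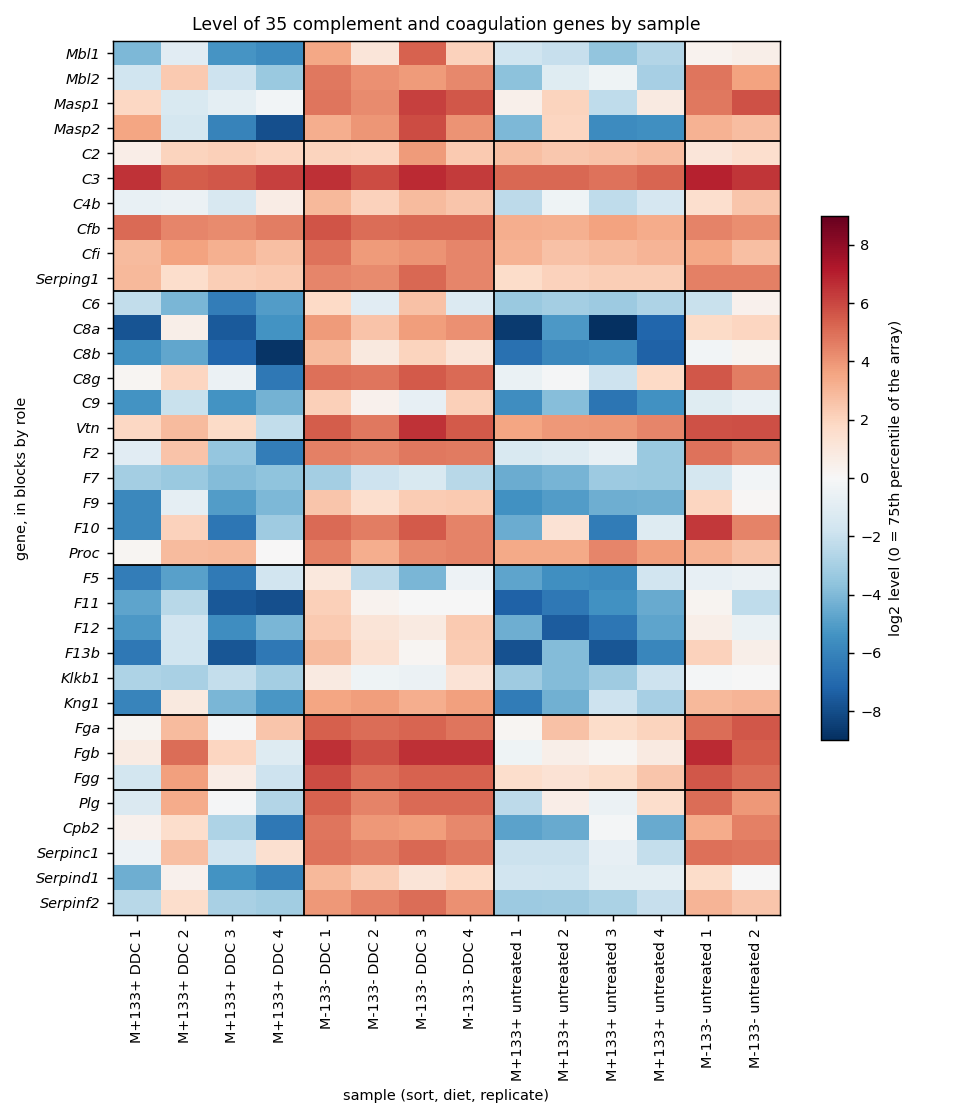
Heat map of the log2 level of each of the 35 genes (rows, in blocks by role) in each of the 14 samples (columns, by sort, diet and replicate), where 0 (white) is the 75th percentile of the array, red is above it and blue below. M-133- columns are red for most genes and M+133+ columns are blue or pale for most. C2, C3, Cfb, Cfi, Serping1, Vtn, Proc and the fibrinogen chains Fga, Fgb and Fgg stay pale to red in nearly every column.

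The lectin arm starts with the mannose-binding lectins Mbl1 and Mbl2 and their proteases Masp1 and Masp2, and all 4 were lower in M+133+ cells of DDC livers. Mbl2 had levels of -1.82, 2.37, -1.85 and -3.31 in M+133+ and 4.75, 4.14, 3.86 and 4.35 in M-133- cells of DDC livers. In untreated livers it had -3.69, -1.07, -0.37 and -2.96 in M+133+ cells, against 4.80 and 3.59 in M-133- cells. The sorts did not overlap under either diet, and the log2 difference was -5.43 (SE 1.01, adjusted p = 0.00218) with DDC and -6.22 (SE 1.24, adjusted p = 0.00546) without. Masp1 differed by -5.36 (SE 0.84, adjusted p = 0.00063) and -5.00 (SE 1.03, adjusted p = 0.00679). Mbl1 was 128-fold lower in DDC livers (log2 difference -7.00, SE 1.03, adjusted p = 0.000388). In untreated livers its difference was -2.95 (SE 1.27, adjusted p = 0.204), with M-133- samples at 0.34 and 0.52. Masp2 differed by -7.26 (SE 2.06, adjusted p = 0.0302) in DDC livers and by -6.27 (SE 2.52, adjusted p = 0.169) in untreated livers. Its M+133+ levels were scattered, since they were 3.56, -1.60, -5.99 and -7.91 with DDC and -4.01, 1.90, -5.68 and -5.55 without. The sorts overlapped for Masp2 in DDC livers, where M-133- sample 1 was at 3.25, and that call was lost in 6 of the alternatives.

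Both Masp genes make shorter products by alternative splicing, and their probes gave unlike values. The brightest Masp2 probe, used above, and a dimmer one further along the gene are shown because they differed most in the sort difference. The first lies at chr4:147977799-147977858 and the second at chr4:147989121-147989180 (both mm9, plus strand, 60 bases).
Masp2, brightest probe: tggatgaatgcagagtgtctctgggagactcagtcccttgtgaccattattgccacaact
Masp2, dimmer probe: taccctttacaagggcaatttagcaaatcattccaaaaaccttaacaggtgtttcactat
The brightest probe gave log2 differences, M+133+ minus M-133-, of -7.26 with DDC and -6.27 without, whereas the dimmer probe gave -0.80 and -0.62. A further Masp2 probe gave -4.54 and -4.19. Which transcript each probe read was not tested. The 4 Masp1 probes ran from -5.36 to -1.28 with DDC and from -5.00 to -1.54 without. A probe of Cpb2 annotated on the minus strand, opposite to the gene's other probes, was well above background on 1 of the 16 arrays and was not used. For C3, F9, Kng1, Plg and Serpinc1 both probes gave a negative difference under both diets. The brightest and the dimmer C2 probe disagreed in sign in DDC livers (-0.86 and 0.81). In untreated livers they gave 1.30 and 0.64, and the sorts overlapped for the dimmer one.

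**Figure D2:**
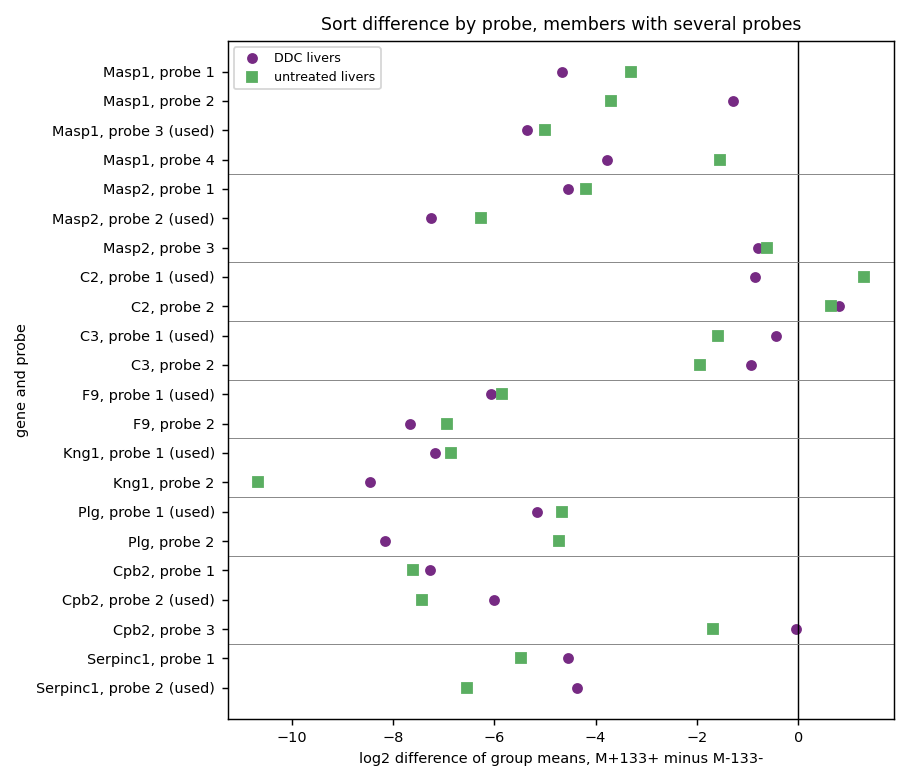
Log2 difference of group means, M+133+ minus M-133- (x axis), for each probe of the 9 members with several probes (rows), in DDC livers (circles) and untreated livers (squares), with the probe used in the tests marked. Most probes lie left of 0, and the third probes of Masp2 and Cpb2 lie to the right of the other probes of their genes.

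The classical and alternative pathways meet at C3, which is cleaved by convertases built from C2 and C4b or from factor B (Cfb), and are held back by factor I (Cfi) and the C1 inhibitor (Serping1). Their median difference, -1.03 with DDC and -1.29 without, was the nearest to 0 of the 7 role groups, and 3 of these 6 genes were lower in M+133+ cells under each diet. C3 was 2.99-fold lower in M+133+ cells of untreated livers (log2 difference -1.58, SE 0.29, adjusted p = 0.00338), with 5.17, 5.15, 4.89 and 5.27 in M+133+ cells and 6.95 and 6.45 in M-133- cells. That C3 call was lost in 5 of the alternatives, among them quantile normalization (log2 difference -0.15) and leaving out M-133- untreated sample 1 (log2 difference -1.33). Over the 10 spots of this C3 probe the authors' deposited table gives a median fold, M-133- over M+133+, of 1.22 and a median false discovery rate of 34.52%. In DDC livers the C3 levels overlapped, with 6.51, 5.47, 5.60 and 6.14 in M+133+ cells and 6.54, 5.89, 6.70 and 6.30 in M-133- cells, and the difference was -0.43 (95% interval -0.94 to 0.09, adjusted p = 0.29). Cfb had 5.12, 4.37, 4.24 and 4.62 in M+133+ cells and 5.64, 5.03, 5.20 and 5.15 in M-133- cells of DDC livers. The Cfb difference was -0.67 (SE 0.24, adjusted p = 0.0914) with DDC and -1.0 (SE 0.30, adjusted p = 0.0523) without. Cfi was 2.30-fold lower in M+133+ cells of DDC livers (log2 difference -1.20, SE 0.33, adjusted p = 0.0231), a call lost in 7 of the alternatives, while in untreated livers its difference was -0.19 (95% interval -1.04 to 0.66). C2 had 0.61, 1.99, 2.17 and 1.90 in M+133+ cells and 2.02, 1.92, 3.80 and 2.35 in M-133- cells of DDC livers, which overlapped. In untreated livers C2 had 2.71, 2.43, 2.54 and 2.77 in M+133+ cells, above the 1.10 and 1.52 of M-133- cells, a difference of 1.30 that did not pass the test (SE 0.58, adjusted p = 0.223). Serping1 was lower in M+133+ cells by -2.31 (SE 0.34, adjusted p = 0.000336) with DDC and -2.51 (SE 0.41, adjusted p = 0.00143) without. C4b was lower by -3.07 (SE 0.59, adjusted p = 0.00276) and -3.65 (SE 0.73, adjusted p = 0.00544). The C4b probe also lists accessions of a near-identical copy of the gene, so its identity is uncertain.

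The pore is assembled from C6, the 3 chains of C8 (C8a, C8b and C8g) and C9, and vitronectin (Vtn) binds and blocks it. All 6 genes were lower in M+133+ cells of DDC livers, and C8a, C8b and C9 were in untreated livers. C8a had -7.79, 0.56, -7.56 and -5.40 in M+133+ and 3.83, 2.56, 3.74 and 4.13 in M-133- cells of DDC livers. In untreated livers it had -8.61, -5.14, -8.93 and -7.15 in M+133+ cells, against 1.69 and 1.91 in M-133- cells. Only 2 of 4 M+133+ DDC arrays and 1 of 5 M+133+ untreated arrays had C8a well above background. Its log2 difference was -8.61 (SE 1.46, adjusted p = 0.00108) with DDC and -9.25 (SE 1.79, adjusted p = 0.00438) without, sizes that rest on signals near background in M+133+ cells. C8b differed by -8.24 (SE 0.86, adjusted p = 2.28e-05) and -6.34 (SE 1.06, adjusted p = 0.00163). C8g differed by -6.32 (adjusted p = 0.00431) and -5.29 (adjusted p = 0.0526), and C9 by -5.23 (adjusted p = 0.00137) and -4.47 (adjusted p = 0.0215). C6 differed by -4.94 (adjusted p = 0.004) with DDC and -2.32 (adjusted p = 0.339) without. Vtn had 1.83, 2.85, 1.74 and -2.19 in M+133+ cells and 5.45, 4.74, 6.47 and 5.54 in M-133- cells of DDC livers. In untreated livers Vtn had 3.56, 3.93, 3.98 and 4.42 in M+133+ cells, close below the 5.73 and 5.83 of M-133- cells. The Vtn difference was -4.49 (SE 0.78, adjusted p = 0.00128) with DDC and -1.81 (SE 0.95, adjusted p = 0.334) without.

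**Figure D3:**
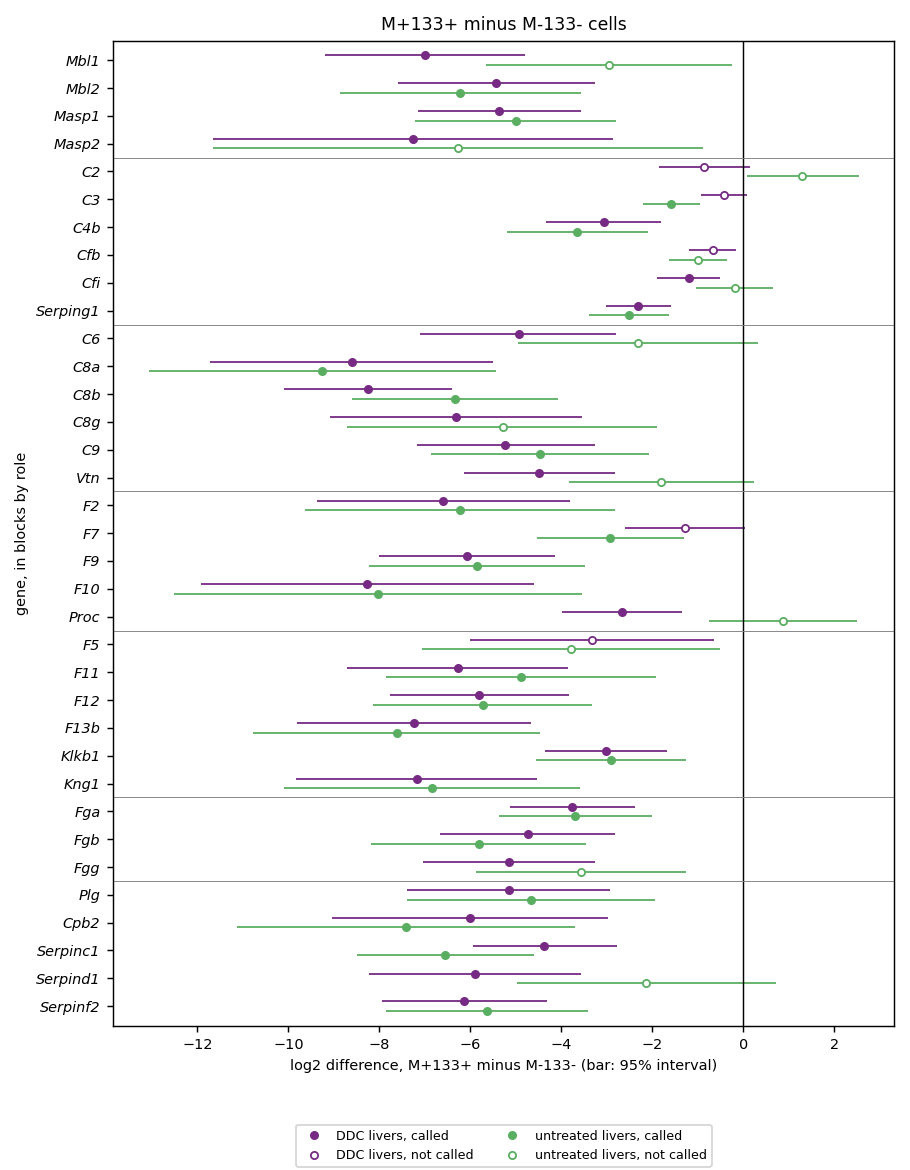
Log2 difference, M+133+ minus M-133- (x axis), of each member (rows, in blocks by role) in DDC livers (upper point of each row) and untreated livers (lower point), with 95% intervals as bars, filled points for calls and open points for the rest. All 35 points of DDC livers lie left of 0, as do all points of untreated livers but those of C2 (1.30) and Proc (0.87).

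Among the vitamin K-dependent proteins, prothrombin (F2) and factors IX (F9) and X (F10) were lower in M+133+ cells under both diets. F10 had -5.77, 2.09, -6.50 and -3.21 in M+133+ and 5.08, 4.60, 5.51 and 4.45 in M-133- cells of DDC livers, and its difference was -8.26 (SE 1.71, adjusted p = 0.00449). In untreated livers it differed by -8.03 (SE 2.10, adjusted p = 0.0265). F2 differed by -6.59 (SE 1.30, adjusted p = 0.00323) and -6.23 (SE 1.60, adjusted p = 0.0241), and F9 by -6.07 (SE 0.90, adjusted p = 0.000409) and -5.85 (SE 1.11, adjusted p = 0.0038). F7, which binds tissue factor to start coagulation, differed by -1.28 (95% interval -2.59 to 0.04, adjusted p = 0.21) with DDC and by -2.92 (SE 0.76, adjusted p = 0.0253) without. Protein C (Proc), the anticoagulant of this group, had 0.16, 2.85, 2.89 and 0.01 in M+133+ cells and 4.53, 3.25, 4.31 and 4.46 in M-133- cells of DDC livers. In untreated livers it had 3.40, 3.42, 4.40 and 3.73 in M+133+ cells, all above the 3.11 and 2.63 of M-133- cells. The Proc difference was -2.66 (SE 0.62, adjusted p = 0.00967) with DDC and 0.87 (95% interval -0.75 to 2.49, adjusted p = 0.638) without.

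The contact system, factor XII (F12), plasma prekallikrein (Klkb1), kininogen (Kng1) and factor XI (F11), was lower in M+133+ cells under both diets, and so was the B chain of factor XIII (F13b), which carries the fibrin-crosslinking enzyme. F12 differed by -5.81 (SE 0.92, adjusted p = 0.000669) with DDC and -5.73 (SE 1.13, adjusted p = 0.00501) without. Klkb1 differed by -3.01 (adjusted p = 0.00468) and -2.91 (adjusted p = 0.0282), Kng1 by -7.18 (adjusted p = 0.00126) and -6.85 (adjusted p = 0.0105), F11 by -6.28 (adjusted p = 0.00173) and -4.89 (adjusted p = 0.0406), and F13b by -7.24 (adjusted p = 0.000963) and -7.62 (adjusted p = 0.00453). F13b was well above background on 2 of 4 M+133+ DDC arrays and 2 of 5 M+133+ untreated arrays, so its sizes rest on signals near background. The untreated calls of F11 and Klkb1 were lost in 10 and 9 of the alternatives. Kng1 has a close paralog, and whether its probes read both was not tested. Factor V (F5), the cofactor of factor X, did not pass under either diet (-3.33, adjusted p = 0.101 with DDC, and -3.79, adjusted p = 0.172, without). Its M+133+ levels of -6.23, -4.90, -6.39 and -1.73 overlapped with M-133- levels of 0.96, -2.35, -4.11 and -0.43 in DDC livers.

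The fibrinogen chains Fga, Fgb and Fgg, which form the clot, were all lower in M+133+ cells of DDC livers. Fgb had 0.77, 5.00, 1.92 and -1.19 in M+133+ and 6.59, 5.71, 6.57 and 6.60 in M-133- cells of DDC livers, and in untreated livers -0.42, 0.53, 0.15 and 0.79 in M+133+ cells, against 6.71 and 5.45 in M-133- cells. Its difference was -4.74 (SE 0.90, adjusted p = 0.00245) with DDC and -5.82 (SE 1.10, adjusted p = 0.00392) without. Fga differed by -3.76 (adjusted p = 0.00116) and -3.69 (adjusted p = 0.00832). Fgg differed by -5.16 (adjusted p = 0.00122) with DDC and -3.57 (adjusted p = 0.0557) without. M+133+ DDC sample 2 had the highest level of each chain among the M+133+ DDC samples, beside its hepatocyte marker mean of 0.84.

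Plasminogen (Plg), the precursor of plasmin, differed by -5.16 (SE 1.05, adjusted p = 0.00383) with DDC and -4.67 (SE 1.28, adjusted p = 0.0339) without. Its counterparts Cpb2, a carboxypeptidase that protects fibrin, and Serpinf2, the plasmin inhibitor, differed by -6.01 (adjusted p = 0.0105) and -6.14 (adjusted p = 0.000229) with DDC, and by -7.42 (adjusted p = 0.0145) and -5.64 (adjusted p = 0.00321) without. Antithrombin (Serpinc1) had -0.49, 2.72, -1.73 and 1.43 in M+133+ and 4.87, 4.61, 5.16 and 4.76 in M-133- cells of DDC livers. In untreated livers it had -1.93, -1.92, -0.72 and -2.17 in M+133+ cells, against 4.94 and 4.79 in M-133- cells. The difference was -4.37 (SE 0.74, adjusted p = 0.0011) with DDC and -6.55 (SE 0.91, adjusted p = 0.000443) without. Heparin cofactor II (Serpind1) differed by -5.90 (SE 1.09, adjusted p = 0.002) with DDC and by -2.13 (SE 1.34, adjusted p = 0.449) without.

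In untreated livers the calls rested on the 2 M-133- samples. Without M-133- untreated sample 1, whose array had the lowest 75th percentile, the median log2 difference of the members was -4.13. Without sample 2 it was -4.5. Either fit leaves 1 M-133- untreated sample, and fewer members were called in each. For every member called in untreated livers the sorts did not overlap, so leaving out a sample could not change its direction. Within the 2 slides that held both sorts of untreated livers, 32 of 35 members were lower in the M+133+ array in each, with medians of -5.03 and -4.28. The M-133- arrays of both slides are the repeat arrays of M-133- untreated sample 2, so these values share 1 M-133- sample. No slide held both sorts of DDC livers, and with slide as a fixed block 18 members were lower there. In the authors' deposited table, where signed folds run M-133- over M+133+, 29 members in DDC livers and 30 in untreated livers had a false discovery rate below 5%, and the sign matched that found here for 35 and 34 of the 35. Those of untreated livers include C2 and Proc, which that table has higher in M+133+ cells (signed folds of -3.215 and -2.865, at false discovery rates of 0.81% and 2.58%). For Cfi and Proc, called lower here in DDC livers, the authors' deposited table gives false discovery rates of 39.07% and 13.96%. Between repeat arrays of one sample, members differed by a median absolute log2 value of 0.94 for M+133+ untreated sample 1 and 1.51 for M-133- untreated sample 2.

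The promoters of the members were searched because the genes moved together between the sorts. RefSeq promoter windows of build GRCm38.p6, 300 bases that end 50 bases after the gene's start, were found for 26 of the 35 members (27 windows). The motifs, searched on both strands, were a core of the hepatocyte factor HNF1 (GTTAAT), a core of HNF4 (CAAAGTC), a C/EBP site (TTGCNNAA) and the IL-6 response element of acute phase genes (CTGGGAA). The HNF1 core was in 25.9% of the members' windows and in 7.1% of all 32851 windows. The C/EBP site was in 33.3% and 10.8%, the IL-6 element in 22.2% and 11.1%, and the HNF4 core in 3.7% and 4.4%. Median GC content was 49.0% in the members' windows and 52.7% in all. A match is a run of letters and says nothing of binding. The windows below belong to the 4 members with the largest sort difference in untreated livers that held an HNF1 or C/EBP match, which capitals mark. They are C8a at chr4:104876349-104876648 (minus strand), F13b at chr1:139501457-139501756 (plus strand), Cpb2 at chr14:75242037-75242336 (plus strand) and Serpinc1 at chr1:160978333-160978632 (plus strand).
C8a: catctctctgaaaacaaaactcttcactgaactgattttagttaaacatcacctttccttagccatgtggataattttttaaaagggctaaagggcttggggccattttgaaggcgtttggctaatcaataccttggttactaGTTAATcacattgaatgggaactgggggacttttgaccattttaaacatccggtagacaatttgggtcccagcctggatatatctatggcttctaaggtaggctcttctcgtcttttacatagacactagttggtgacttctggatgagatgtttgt
F13b: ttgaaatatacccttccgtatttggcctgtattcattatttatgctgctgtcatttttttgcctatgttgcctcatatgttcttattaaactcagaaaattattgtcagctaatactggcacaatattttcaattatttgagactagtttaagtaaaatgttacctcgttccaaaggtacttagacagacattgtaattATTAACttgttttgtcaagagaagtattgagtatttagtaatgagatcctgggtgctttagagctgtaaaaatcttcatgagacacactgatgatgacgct
Cpb2: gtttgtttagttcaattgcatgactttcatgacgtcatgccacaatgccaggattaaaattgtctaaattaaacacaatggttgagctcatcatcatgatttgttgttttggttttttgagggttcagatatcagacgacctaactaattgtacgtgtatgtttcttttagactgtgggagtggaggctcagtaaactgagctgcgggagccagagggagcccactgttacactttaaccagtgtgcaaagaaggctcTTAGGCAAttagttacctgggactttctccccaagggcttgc
Serpinc1: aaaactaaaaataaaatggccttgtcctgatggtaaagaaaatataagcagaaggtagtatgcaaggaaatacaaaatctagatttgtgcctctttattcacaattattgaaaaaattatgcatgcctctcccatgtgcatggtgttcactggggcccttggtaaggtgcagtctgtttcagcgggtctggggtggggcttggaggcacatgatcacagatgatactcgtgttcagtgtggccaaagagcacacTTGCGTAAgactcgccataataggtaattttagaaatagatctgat
Counted from the start, the HNF1 letters lie at -107 to -102 in C8a and, as the reverse complement, at -51 to -46 in F13b. The C/EBP letters lie, as the reverse complement, at 9 to 16 in Cpb2 and, as written above, at 5 to 12 in Serpinc1.

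The second comparison asked how each sort differs after DDC feeding. In M+133+ cells 0 of the 35 members passed the test in either direction, beside 0.146% of all genes higher and 0.0944% lower. In M-133- cells 0 passed as well, beside 0.613% higher and 0.403% lower over all genes. Before adjustment, 6 members in M+133+ and 2 in M-133- cells had p below 0.05. The median log2 difference of the members, DDC minus untreated, was 0.24 in M+133+ and 0.50 in M-133- cells, where the medians of all genes were 0.06 and -0.36. In M+133+ cells every DDC sample lay above every untreated sample for Cfb and C3, 5.71% of the members beside 4.08% of all genes. The reverse held for Vtn, Proc and C2, 8.57% of the members beside 4.26% of all genes. In M-133- cells 11 members lay above the untreated samples without overlap, beside 7.12% of all genes, and 0 lay below, beside 12.7%.

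**Figure D4:**
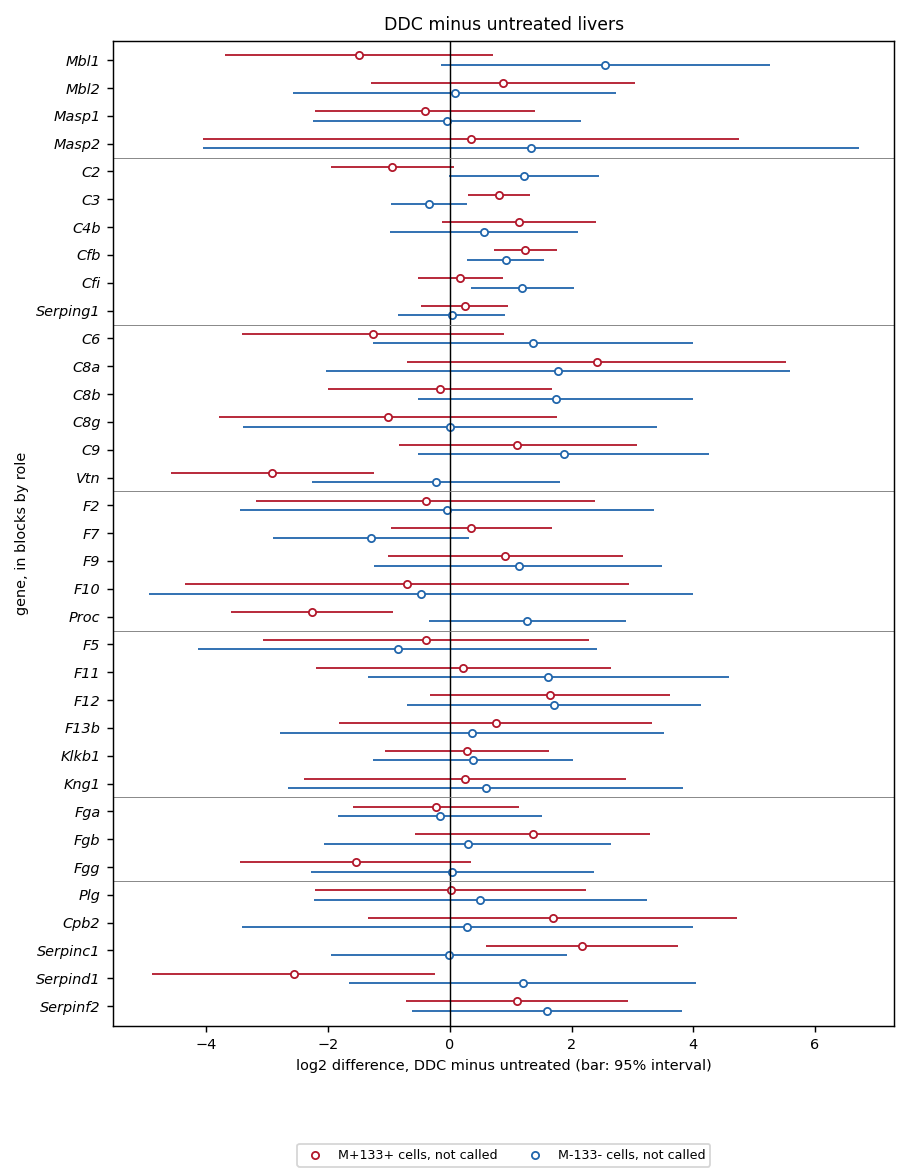
Log2 difference, DDC minus untreated (x axis), of each member (rows, in blocks by role) in M+133+ cells (upper point of each row) and M-133- cells (lower point), with 95% intervals as bars. All points are open because none passed the test, and the intervals of Cfb, C3 and Serpinc1 lie right of 0 and those of Vtn, Proc and Serpind1 left of 0 in M+133+ cells.

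Cfb came closest to the threshold in the main fit. Its M+133+ levels were 5.12, 4.37, 4.24 and 4.62 with DDC, against 3.26, 3.17, 3.61 and 3.34 without, a log2 difference of 1.24 (SE 0.24, adjusted p = 0.0528). The difference passed without M+133+ DDC sample 2 (adjusted p = 0.0499), without M+133+ DDC sample 3 (adjusted p = 0.0411) and with averaged probes (adjusted p = 0.0452). Cfb has no other probe, so averaging left its difference at 1.24 and changed only the other genes in the fit. The Cfb difference did not pass in the other alternatives, where the adjusted p reached 0.332 with slide as a fixed block. With quantile normalization the adjusted p was 0.152 for Cfb, 0.069 for Vtn and 0.108 for Proc. The authors' deposited table gives Cfb in M+133+ cells a signed fold, DDC over untreated, of 1.753 at a false discovery rate of 18.56%. In M-133- cells Cfb had 5.64, 5.03, 5.20 and 5.15 with DDC, against 4.48 and 4.20 without, a difference of 0.92 (SE 0.30, adjusted p = 0.188). C3 differed by 0.81 (SE 0.24, adjusted p = 0.188) in M+133+ cells, where every DDC sample lay above every untreated one, and by -0.34 (SE 0.29, adjusted p = 0.719) in M-133- cells. Cfi differed by 0.17 (95% interval -0.52 to 0.87) in M+133+ and by 1.19 (SE 0.40, adjusted p = 0.198) in M-133- cells.

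Vtn and Proc lay lower in all 4 M+133+ DDC samples than in any M+133+ untreated sample. The log2 difference, DDC minus untreated, was -2.92 (SE 0.78, adjusted p = 0.149) for Vtn and -2.26 (SE 0.62, adjusted p = 0.158) for Proc. Without M+133+ DDC sample 4, whose Vtn level was -2.19, the Vtn difference was -1.84 (adjusted p = 0.123). Within slides it was -1.62 and -4.65 for Vtn, and -2.41 and -2.28 for Proc. In M-133- cells Vtn differed by -0.23 (95% interval -2.27 to 1.81) and Proc by 1.27 (95% interval -0.35 to 2.89). C2 had 0.61, 1.99, 2.17 and 1.90 in M+133+ DDC samples, against 2.71, 2.43, 2.54 and 2.77 in M+133+ untreated samples, a difference of -0.95 (SE 0.47, adjusted p = 0.43). These are values of its brightest probe. The dimmer C2 probe gave a difference of -0.06, with 3.18, 1.09, 1.95 and 0.60 against 1.58, 1.33, 2.12 and 2.05, which overlapped. Serpind1 had -4.40, 0.36, -5.40 and -6.09 in M+133+ DDC samples, against -1.73, -1.79, -0.89 and -0.87 in M+133+ untreated samples. Sample 2, the one with raised hepatocyte markers, was thus above all untreated samples and the other DDC samples were below them. The Serpind1 difference was -2.56 (SE 1.09, adjusted p = 0.349) with all samples, and it passed without that sample (adjusted p = 0.0318). Serpinc1 differed by 2.17 (SE 0.74, adjusted p = 0.236), with overlap. In the authors' deposited table the signed folds, DDC over untreated, in M+133+ cells were -9.434 for Vtn and -5.587 for Proc, at false discovery rates of 7.38% and 10.59%, and 0 members were below 5%.

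Over all 35 members the order between diets in M+133+ cells was not consistent between slides. Cfb, C3, Vtn, Proc and C2 could not change sign between slides, since their DDC and untreated samples did not overlap. Within slide 3, 29 of the 35 were higher in the M+133+ DDC arrays (median 0.73), whereas within slide 4, 27 were lower (median -0.79). Slide 3 held M+133+ DDC sample 2. The hepatocyte marker median, DDC minus untreated, was 0.03 in M+133+ cells and -0.49 in M-133- cells. Other marker lists moved with diet in M-133- cells, where the endothelial median was -2.83 (11 of 11 negative, 0 called), the stellate and fibroblast median was 1.90 (11 of 11 positive, 2 called higher) and 2 of 11 bile duct markers were called higher. Their part in the members' values was not tested. Mbl1 had 3.45, 1.09, 5.34 and 2.06 with DDC in M-133- cells, against 0.34 and 0.52 without (difference 2.55, SE 1.27, adjusted p = 0.427). The 11 members above the untreated samples there were Mbl1, Masp2, C2, Cfb, Cfi, C8a, C8b, Proc, F12, Kng1 and Serpinf2. These are values of the brightest probes. The other probe of C2 gave a difference of -0.24 and that of Kng1 gave -0.18. The other Masp2 probes gave -1.31 and 1.53. Within slides 1 and 2, M-133- medians were 0.78 and 0.91. These comparisons share their untreated samples with the sort comparison of untreated livers.

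**Figure D5:**
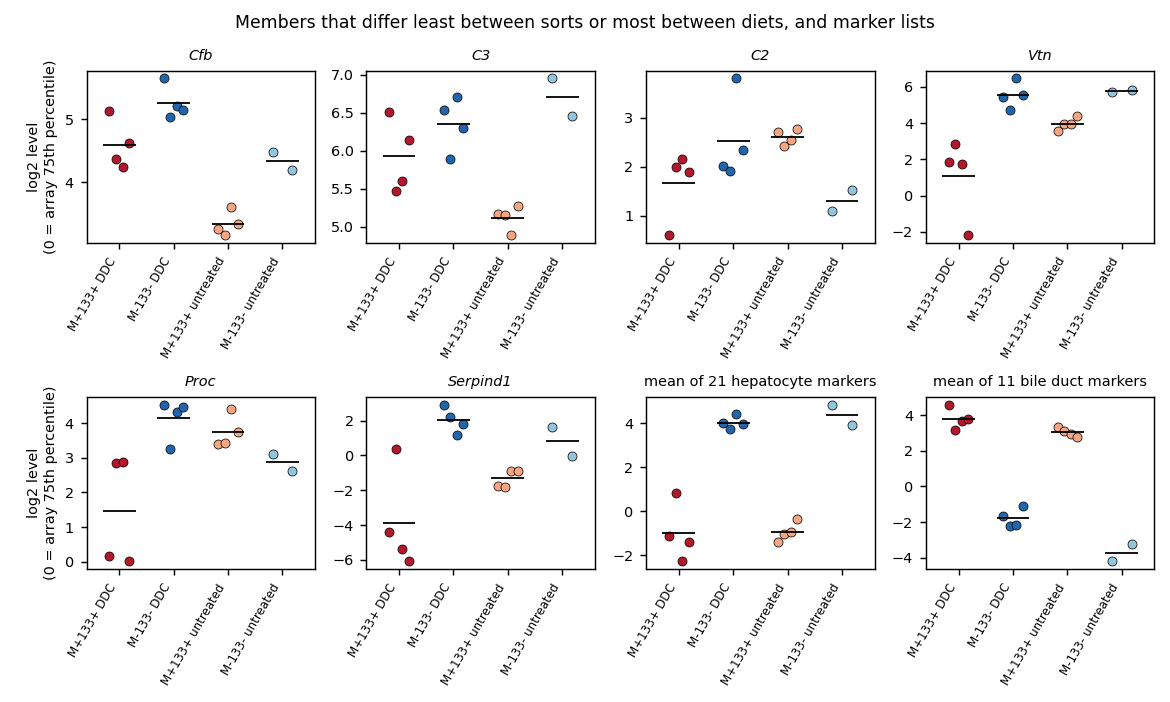
Log2 level (y axis, each panel with its own scale, 0 = 75th percentile of the array) of 6 members and of the means of 2 marker lists, in each sample (points) of the 4 groups (x axis), with the group mean as a line. Cfb and C3 sit higher and Vtn, Proc and C2 lower in M+133+ DDC than in M+133+ untreated samples. The C2 panel shows the brightest probe, and the dimmer C2 probe, not shown, overlapped between these groups. For Serpind1 and for the hepatocyte markers, 1 of the 4 M+133+ DDC samples stands above the others.

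The interaction asked whether the sort difference itself changed with DDC, and 0 members passed, beside 0.0601% of all genes higher and 0.197% lower. Before adjustment, 6 members had p below 0.05. The sort difference with DDC minus that without was -3.53 (95% interval -5.63 to -1.44, adjusted p = 0.197) for Proc, -2.16 (-3.75 to -0.57, adjusted p = 0.344) for C2 and 1.15 (0.34 to 1.96, adjusted p = 0.307) for C3. It was -4.05 (adjusted p = 0.43) for Mbl1, -3.76 (adjusted p = 0.484) for Serpind1 and -2.69 (adjusted p = 0.485) for Vtn. The C2 value is that of its brightest probe, from which the dimmer C2 probe differed in both sort differences. The median over the members was -0.33, and that over all genes was 0.38. The calls of Mbl1, Vtn, Proc and Serpind1 in DDC livers alone are therefore not shown to differ between the diets.

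Other genes of the same pathways, made in liver or elsewhere, were read from 4 lists. Of 16 other complement components tested, 8 were lower in M+133+ cells of DDC livers and 2 of untreated livers, and 0 were higher. They included C5 (Hc, -6.81 and -7.32) and the collectins Colec10 (-10.51) and Colec11 (-7.55), the last 2 in DDC livers. Of 19 regulators and receptors, 7 were lower and 1 higher in DDC livers, and 6 lower and 1 higher in untreated livers. Clusterin (Clu), another blocker of the pore, was the higher one, with 6.84, 5.39, 5.94 and 6.13 in M+133+ and 5.35, 5.05, 4.69 and 5.11 in M-133- cells of DDC livers (log2 difference 1.02, SE 0.30, adjusted p = 0.0362). Untreated livers gave Clu levels of 5.67, 5.43, 5.78 and 5.96 in M+133+ cells, against 2.14 and 3.23 in M-133- cells (log2 difference 3.03, SE 0.37, adjusted p = 0.000169). Clu was also higher with DDC in M-133- cells (2.37, SE 0.37, adjusted p = 0.00644).

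Of 23 further coagulation genes, 10 were lower and 2 higher in M+133+ cells of DDC livers, and 7 lower and 2 higher in untreated livers. The higher ones were tissue factor (F3), the cellular trigger of coagulation, and the protease-activated receptor F2rl1. F3 had 5.92, 3.37, 3.88 and 5.04 in M+133+ and -0.23, -0.55, -0.26 and -0.60 in M-133- cells of DDC livers (difference 4.96, adjusted p = 4.77e-05). For F3 in untreated livers the levels were 3.44, 3.04, 1.99 and 2.05 in M+133+ cells, against -2.42 and -3.64 in M-133- cells (difference 5.66, adjusted p = 0.000185). F2rl1 was at least 971-fold higher in M+133+ cells of untreated livers, where M-133- cells had it not well above background (adjusted p = 0.00259). In DDC livers F2rl1 levels were 4.04, 3.93, 4.18 and 3.10 in M+133+ cells, against a scattered 2.17, -7.43, -8.07 and 0.37 in M-133- cells. Factor VIII (F8), which liver endothelium makes, was lower (-5.16 and -7.24), as were 10 and 9 of the 11 endothelial markers in the 2 diets. Of 12 fibrinolysis genes, the urokinase receptor Plaur was higher under both diets (3.78 and 4.67) and Pzp lower in untreated livers (-3.87). In M+133+ cells, DDC against untreated, Colec10 was lower (-6.07, SE 1.10, adjusted p = 0.0384), with -4.32, -8.95, -3.00 and -8.82 in DDC samples, against -1.10, 0.12, 0.23 and -0.07 in untreated samples.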

How the data were processed

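The deposited array files hold each spot's processed signal, the raw mean and the background median as intensity; per the file headers, Agilent Feature Extraction 10.5.1.1 subtracted background and detrended within arrays. A table deposited by the authors gives signed folds with false discovery rates (percent), and the submitters' processing notes name limma. Repeat spots were averaged, the log2 of the 75th percentile of each array was subtracted, and repeat arrays were averaged. Probes well above background in 0.5 or more of any group's samples were kept, and the brightest kept probe stood for its gene. Linear models were fitted over all 14 samples in R 4.3.3 with limma 3.58.1 (intensity trend, two-sided tests), with p-values adjusted by Benjamini-Hochberg over 23312 genes, after a check on simulated data. SE is moderated. Motifs were counted in Python 3.11.15. Probe coordinates are mm9. All 35 members are named, with other pathway genes called in a comparison, up to 4 per list and direction or where few. Members and lists were chosen with earlier results of these data known. The number of arrays limits the precision. Alternatives covered scaling, background, filter, probes, trend, slide, repeat arrays, blocks and left-out samples. Some genes of the other pathway lists are not reported here.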

Additional observations from a re-analysis of the deposited data

Results flagged for a closer look

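In groups of 4 samples, the gap of the highest or lowest sample to its neighbour was compared with the range of the group, by Dixon's test at its 95% critical value. Of 105 groups of a member, 5 exceeded it, and chance gives about 1 in 20. Serpinf2 had 1.59 in M+133+ DDC sample 2, against -3.13 to -2.49 in the other M+133+ DDC samples, beside a hepatocyte marker mean of 0.84 in that sample. Cpb2 had -0.18 in M+133+ untreated sample 3, against -4.80 to -4.51 in the others. Among M-133- DDC samples, Serping1 had 5.20 in sample 3, against 4.28 to 4.41. Sample 2 of that group was lowest for F9 at 1.50, against 2.32 to 2.47, and for Fgb at 5.71, against 6.57 to 6.60.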

How the results depend on the processing

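No member called in a sort comparison changed its direction under any of the alternatives. The sorts did not overlap for any called member but Masp2 in DDC livers. For these members, leaving out a sample could not have changed the direction with the same probe. Under all alternatives, 18 of 30 members in DDC livers and 3 of 23 in untreated livers were called. For DDC livers the count of members called lay between 18 and 31 under 12 alternatives, the lowest with slide as a fixed block (18), and between 28 and 31 when single samples were left out. For untreated livers it lay between 15 and 29, the lowest with the number that opens the sample titles as a block (15). Leaving out single samples gave 6 to 26, with 6 without M-133- untreated sample 1 and 11 without sample 2, where the remaining sample is assumed to vary like the other groups. For DDC in M+133+ cells the count was 1 when the probes of each gene were averaged. The gene was Cfb, which has no other probe. Leaving out single samples gave 0 to 2, namely Cfb and Serpind1 without M+133+ DDC sample 2 and Cfb without sample 3. No member passed for DDC in M-133- cells or for the interaction under any alternative. Samples with the same replicate number correlated between -0.153 and 0.076 in their deviations from group means, so the replicate numbers were not treated as pairs. The number that opens the titles recurs across the sorts and is not explained in the sources used here. Samples of unlike sort that share it correlated between -0.013 and 0.112. Whether they came from the same mice is not given, and the main fit leaves that number out. With the replicate block 31 members were called in DDC livers and 19 in untreated livers, and 0 in the other comparisons. With the title number block 30 members were called in DDC livers and 15 in untreated livers. That block gives no comparison of DDC with untreated livers, since the title numbers are nested in diet. C8a, C8b, F11 and F13b were well above background on 2 of 4 M+133+ DDC arrays. The sizes of their differences there rest in part on signals near background, which also limits their precision.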
